A study of Tupaia belangeri with 6 samples.

Results

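Cortical projection neurons are built and kept in their layers by a small set of transcription factors, and the prefrontal cortex (PFC) of the tree shrew (Tupaia belangeri) is described here through 9 of them. CUX1, CUX2 and RORB were taken as the upper layer members, TBR1, BCL11B, FEZF2, FOXP2 and TLE4 as the deep layer members, and NEUROD2 as a member shared by excitatory neurons of all layers. They were found by an exact match of the gene name, leaving out rows that the annotation marks as gene-like copies. A row carried the name of 8 of the 9 members, and none was named FOXP2. These 8 are among 95863 loci in all, of which 22608 carry a gene name, and each of them had a single row and no copy. RNA came from 3 adult females (numbered 1, 3 and 4) and 3 adult males (numbered 1, 4 and 5), with no treatment or altered allele given for either sex. By the study's own list the males were all older than the females, so sex and age cannot be told apart. Levels are in TPM, the abundance of transcripts per length of sequence scaled to the library, from which no read counts can be recovered.

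In the developing mammalian cortex, deep layer neurons are born before upper layer neurons, and the factors that specify one class often repress those of the other. FEZF2 and BCL11B (also called CTIP2) direct neurons that project to the spinal cord and brainstem, TBR1, TLE4 and FOXP2 mark neurons that project to the thalamus, and CUX1 and CUX2 mark neurons that project within the cortex, while RORB marks the input layer between them. In the adult most of these genes remain active in their own layer, but several are also used elsewhere, BCL11B and FOXP2 by striatal projection neurons and CUX1 by many cell types. The tables measure a piece of tissue that holds all layers, so fewer cells of a type and less RNA per cell cannot be told apart.

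The tissue carried the markers of cerebral cortex. SLC17A7, the vesicular glutamate transporter of cortical excitatory neurons, lay between 783 and 1569 TPM in the 6 libraries. The 6 hindbrain and spinal cord genes with a row summed to between 0.455 and 1.46 TPM. Of the listed striatal genes, 10 of 15 had a row, and their sum was 447, 476 and 628 TPM in female 1, female 3 and male 1 but 198, 205 and 167 TPM in female 4, male 4 and male 5. DRD2, PPP1R1B and ADORA2A, which define striatal neurons, are among those with no row of their name. Oligodendrocyte markers summed to between 626 and 774 TPM in the females and to between 188 and 412 TPM in the males, with all 6 of the genes with a row lowest in male 5. The hemoglobin genes HBG and HBQ1 were the only called genes of the lists used, HBG with 549 to 1286 TPM in the females and 26.5 to 46.0 TPM in the males (adjusted p = 0.00983 by limma). These values move with some of the results and are given again beside them.

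The members of both layer classes were interleaved in the order of their deposited TPM. The row named TBR1 had the highest deposited TPM of the 8 in each of the 6 libraries, although from coverage it took places 3 to 6. Whether that row holds more than TBR1 was not tested. In deposited TPM, NEUROD2 and CUX1 held the next 2 places in each library, and TLE4 was last or last but one. Mean TPM ran from 269 ± 57.5 (SD, n = 6) for TBR1 through 97.5 ± 30.4 for NEUROD2, 85.8 ± 12.3 for CUX1, 30.9 ± 10.3 for FEZF2, 25.6 ± 8.38 for CUX2, 23.8 ± 2.50 for RORB and 17.3 ± 9.48 for BCL11B to 16.1 ± 2.49 for TLE4. Among 11270 named genes with a strand and a mean of at least 1 TPM, the median level was 20.4 TPM. TBR1 stood at percentile 96.1 of these genes, NEUROD2 at 85.9, CUX1 at 83.8, and the other 5 members between 44.2 and 61.0. Neighbours in this order were set against each other within each library by an exact permutation test, two-sided, that flips the sign of each animal's difference in log2(TPM + 1). TBR1 was above NEUROD2 by 1.48 on this scale, and CUX1 above FEZF2 by 1.51, each in 6 of 6 libraries (exact p = 0.0312, the smallest this design can give; adjusted p = 0.109 over 7 neighbouring pairs by Benjamini-Hochberg). No pair passed an adjusted p of 0.05, a threshold out of reach unless at least 5 of the 7 pairs were at the smallest p, so this says nothing on whether the levels differ. The pairs were formed from the order of the same values. NEUROD2 and CUX1, FEZF2 and CUX2, CUX2 and RORB, RORB and BCL11B, and BCL11B and TLE4 differed by less than the SD of the difference between libraries (exact p between 0.156 and 0.844, adjusted p between 0.365 and 0.844). Leaving out female 3 placed TLE4 above BCL11B, and leaving out any other animal kept the order.

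**Figure D1:**
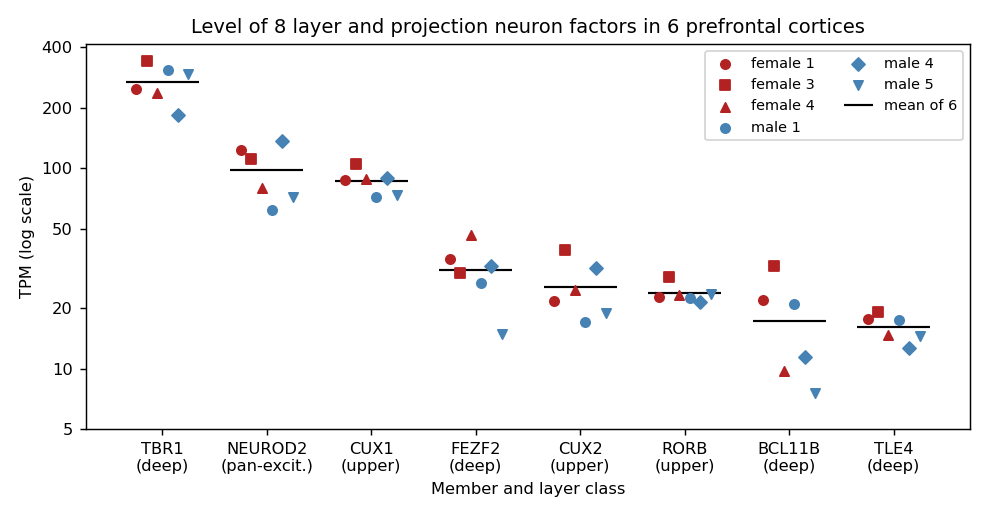
Level of each of the 8 members in TPM (log scale) in the prefrontal cortex of 3 females (red) and 3 males (blue). Each symbol is 1 animal and each black line is the mean of the 6. TBR1 is the highest member in every animal, RORB has the tightest points (21.6 to 28.7 TPM) and BCL11B the widest (7.57 to 32.4 TPM).

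The order rested on which of the deposited columns was read. The same tables list the mean coverage of each locus, and for 5 members the levels from coverage and TPM agreed within a factor of 1.43 in every library. Coverage was put on the TPM scale with the TPM that 1 unit of coverage was worth in the loci without strand of the same library (between 0.6503 and 0.8362), a step chosen after the data were seen. The ratio of deposited TPM to this coverage-based TPM had a median of 1.5 over the 11270 named genes and exceeded 5 in 14.3% of them. It was 1.0 for NEUROD2, 1.07 for BCL11B, 1.14 for TLE4, 1.39 for FEZF2 and 1.40 for RORB (medians of 6 libraries). It was 24.9 for CUX1 (20.6 to 26.9), 17.3 for TBR1 (15.5 to 20.2) and 9.37 for CUX2 (8.68 to 11.4), which lie at percentiles 98.5, 97.2 and 93.2 of those genes. On the coverage scale NEUROD2 was the highest member in all 6 libraries at 97.5 ± 30.4 (SD, n = 6), TBR1 was at 15.5 ± 2.89, CUX1 at 3.51 ± 0.446 and CUX2 at 2.59 ± 0.722. TBR1 then took places 3 to 6 in the 6 libraries, and CUX1 and CUX2 the last 2 places in each. On that scale NEUROD2 exceeded FEZF2, TLE4 exceeded CUX1 and CUX1 exceeded CUX2 in 6 of 6 libraries (exact permutation p = 0.0312, adjusted p = 0.0729 for each). Here too the pairs were formed from the order of the same values, and this p is the smallest the design can give. Which scale is nearer to the abundance of the messages was not tested.

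**Figure D2:**
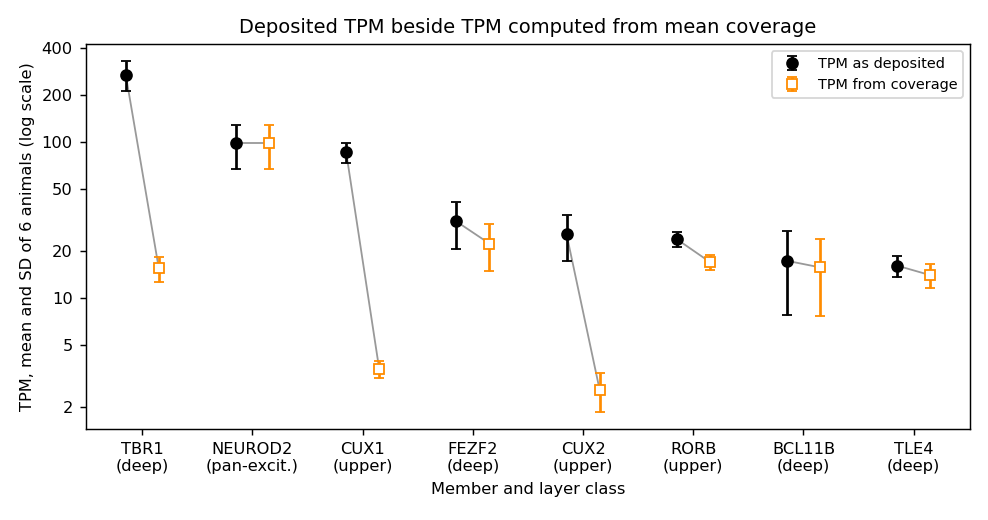
Mean and SD over 6 animals of the deposited TPM (black circles) and of TPM computed from mean coverage (orange squares) for each member, on a log scale. The symbols lie close together for NEUROD2, FEZF2, RORB, BCL11B and TLE4, whereas the coverage value of TBR1, CUX1 and CUX2 is lower by median factors of 17.3, 24.9 and 9.37.

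These 3 members also have the longest rows. The TBR1 row covers 612829 bases of chromosome 1 (142699839 to 143312667, plus strand, genome TS_3.0) and fills most of the interval between the rows of TANK, which ends at 142620733, and DPP4, which starts at 143318084. TBR1 is a compact gene in other mammals, PSMD14 is the protein-coding gene listed next to it in the RefSeq annotation of another tree shrew assembly (TupChi_1.0), and 0 rows of the tables carry the name PSMD14 or SLC4A10, although 1 row is named as a PSMD14 copy. The genes listed next to BCL11B, FEZF2 and NEUROD2 (SETD3, CEP15 and PPP1R1B) have no row of their names either, whereas those next to CUX1 and TLE4 (MYL10 and PSAT1) have 1 each. Of the 12 loci that overlap the TBR1 row, 8 lie on the opposite strand and 4 have no strand, and 2 carry a gene name. The missing names cannot tell whether the TBR1 row holds more than TBR1, which was not tested. The CUX1 row covers 444057 bases of chromosome 2 (49950334 to 50394390, plus strand), and the CUX2 row 340205 bases of chromosome 22 (21159585 to 21499789, minus strand). Both are long genes in other mammals too. The shortest rows are those of NEUROD2 with 8753 bases on chromosome 15 (67362705 to 67371457, plus strand) and FEZF2 with 16589 bases on chromosome 23 (35306715 to 35323303, minus strand).

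CUX1, a homeobox factor of upper layer neurons that also acts in dividing and non-neuronal cells, was at 86.8, 105 and 88.5 TPM in females 1, 3 and 4 and at 71.6, 89.5 and 73.2 TPM in males 1, 4 and 5. Female 3 was highest and male 1 lowest, and the sexes overlapped. CUX2, its paralog with a narrower range in upper layers, was at 21.7, 39.1 and 24.8 TPM in the females and at 17.2, 31.7 and 18.9 TPM in the males. The same 2 animals were at its ends, but the spread was wider, with a highest over lowest value of 2.27 against 1.47 for CUX1. The ratio of CUX1 to CUX2 ran from 2.69 in female 3 to 4.17 in male 1 in deposited TPM, but from 1.01 in male 4 to 1.63 in male 5 from coverage.

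RORB, the orphan nuclear receptor of layer 4 neurons, was the steadiest member. It was at 22.8, 28.7 and 23.4 TPM in the females and at 22.5, 21.6 and 23.7 TPM in the males. Apart from female 3, the animals lay within 21.6 to 23.7 TPM. Its SD on the log2(TPM + 1) scale was 0.138, at percentile 3.83 of the named genes, whose median SD was 0.335. The row lies on chromosome 2 (162976332 to 163197005, plus strand), and the strongest of the 10 loci that overlap it, an unnamed one without strand, averaged 1.24 TPM. The strongest locus overlapping CUX1, SH2B2li1 on the opposite strand, averaged 1.77 TPM, and those overlapping TBR1, BCL11B, NEUROD2, CUX2 and TLE4, all unnamed, averaged 1.68, 1.44, 0.354, 0.171 and 0 TPM.

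Among the deep layer members, TLE4 varied little and TBR1 to a middling degree, with SDs of log2(TPM + 1) at percentiles 17.4 and 47.3 of the named genes. TLE4, a Groucho corepressor of neurons that project to the thalamus, was at 17.8, 19.3 and 14.7 TPM in the females and at 17.5, 12.7 and 14.6 TPM in the males (chromosome 2, 168627751 to 168795641, plus strand). RORB exceeded TLE4 in 6 of 6 libraries, by factors between 1.28 and 1.70. The TBR1 locus was at 247, 343 and 237 TPM in the females and at 307, 183 and 295 TPM in the males. Both TLE4 and TBR1 were highest in female 3 and lowest in male 4, as was RORB.

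BCL11B, a zinc finger factor of neurons that project below the cortex, had the widest spread of the 8. It was at 22.0, 32.4 and 9.72 TPM in the females and at 21.0, 11.4 and 7.57 TPM in the males. The 6 animals fell into 3 at 21.0 TPM or more (female 1, female 3 and male 1) and 3 at 11.4 TPM or less (female 4, male 4 and male 5), a split that crosses the sexes. The highest value was 4.27 times the lowest, against a median of 1.95 for the named genes, and its SD on the log2(TPM + 1) scale, 0.760, was at percentile 92.7. On the coverage scale, which comes from the same reads and is not a separate measurement, it ran from 7 in male 5 to 27.5 in female 3. The row lies on chromosome 4 (60505824 to 60602478, minus strand).

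The 3 animals with more BCL11B were the 3 with the higher sum of striatal markers and also the 3 with the higher sum of deep layer markers (1314 to 1398 TPM against 578 to 998 TPM). All 3 were above the other 3 for 8 of 10 striatal genes, for 12 of 26 deep layer markers and for TLE4, where 8.86% of the named genes had this order, a count made after the data were seen and given with no test. RGS9, a G protein regulator enriched in striatal neurons and the striatal gene with the largest difference between the sexes, was at 48.0, 43.7 and 1.52 TPM in females 1, 3 and 4 and at 54.6, 0.355 and 0.392 TPM in males 1, 4 and 5. TAC1, the precursor of substance P, was at 89.2, 78.3 and 26 TPM in the females and at 232, 22.3 and 10.6 TPM in the males. PENK, the precursor of enkephalins and the most abundant gene of that list, was at 178, 174 and 111 TPM in the females and at 216, 130 and 98.9 TPM in the males. The 2 striatal genes with another order were RARB and DRD1, a dopamine receptor of striatal neurons, which was at 5.05, 7.06 and 1.2 TPM in the females and at 4.02, 4.83 and 2.70 TPM in the males. Cortical neurons also express PENK and TAC1. SIX3, another of the 8, was at 13.9, 10.4 and 0.327 TPM in the females and at 19.1, 0 and 0 TPM in the males. It was named after its values were seen. The part of striatal cells, or of deep layer cells, in the level of BCL11B was not tested.

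FEZF2, the zinc finger factor needed for neurons that project to the spinal cord, had the next widest spread, with a pattern of its own. It was at 35.2, 29.9 and 46.3 TPM in the females and at 26.7, 32.4 and 14.9 TPM in the males. Female 4, low in BCL11B, was highest in FEZF2, and male 5 was lowest in both. The ratio of FEZF2 to BCL11B ran from 0.923 in female 3 to 4.76 in female 4, so the 2 deep layer factors did not keep a fixed proportion between animals. An unnamed locus of 658 bases on the same strand lies inside the FEZF2 row and was at 3.45, 2.19 and 6.28 TPM in the females and at 3.70, 3.67 and 2.94 TPM in the males.

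NEUROD2, a basic helix-loop-helix factor of excitatory neurons, was at 123, 111 and 80.0 TPM in the females and at 62.1, 137 and 71.8 TPM in the males. Male 4 was highest, as in no layer member in deposited TPM, and male 1 was lowest. On the coverage scale CUX2 was highest in male 4 too (3.61, against 3.41 in female 3). SLC17A7 was at 1222, 1344 and 1003 TPM in the females and at 783, 1569 and 1067 TPM in the males, and CAMK2A, the kinase of excitatory synapses, was at 1844, 1858 and 1224 TPM and at 1094, 2217 and 1184 TPM. Male 4 was highest and male 1 lowest in all 3 genes. NEUROD2 amounted to between 5.68% and 6.68% of CAMK2A, a highest over lowest ratio of 1.18, although NEUROD2 itself varied by 2.21 and CAMK2A by 2.03. Relative to SLC17A7, the highest over lowest ratio was 1.5 for NEUROD2 (2.21 in TPM), 1.6 for CUX1 (1.47), 1.64 for CUX2 (2.27) and 2.09 for RORB (1.33). It was 2.77 for TLE4 (1.52), 3.31 for FEZF2 (3.12), 3.37 for TBR1 (1.88) and 3.78 for BCL11B (4.27). The division narrowed the spread of NEUROD2, CUX2 and BCL11B and widened that of the others.

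**Figure D3:**
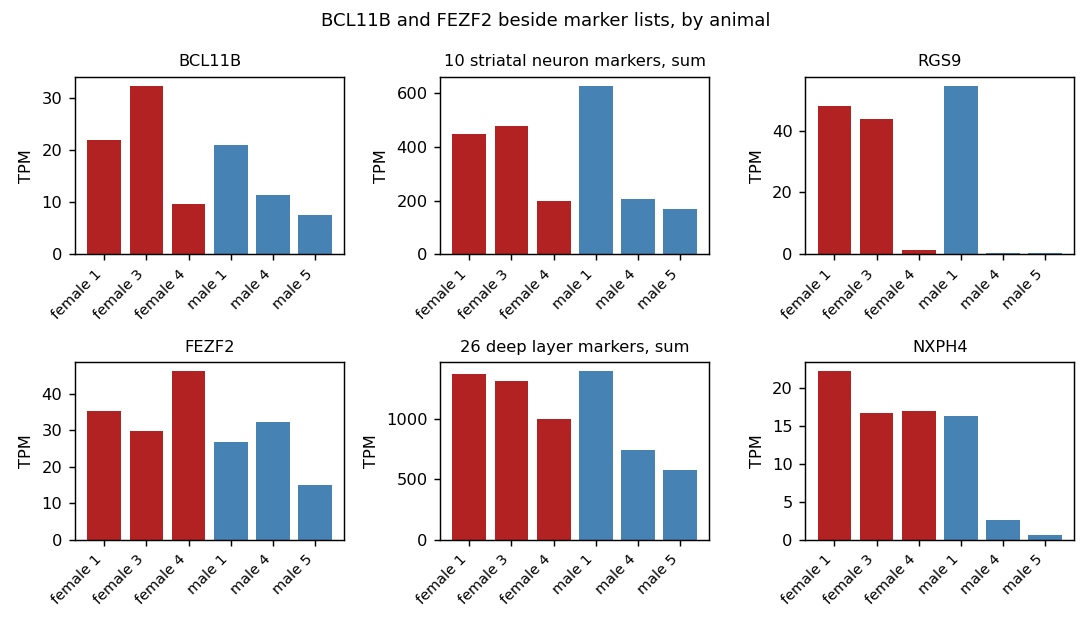
TPM of BCL11B, the sum of 10 striatal neuron markers and RGS9 (top row), and of FEZF2, the sum of 26 deep layer markers and NXPH4 (bottom row), in each of 3 females (red bars) and 3 males (blue bars). BCL11B, the striatal sum, RGS9 and the deep layer sum are higher in female 1, female 3 and male 1 than in the other animals, and FEZF2, the deep layer sum and NXPH4 are lowest in male 5.

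The balance of upper against deep layer members was close to even on average and varied between animals. Computed as the mean log2(TPM + 1) of the 3 upper layer members minus that of the 4 deep layer members with a row, the index had a mean of -0.03 ± 0.307 (SD, n = 6). Females 1, 3 and 4 had values of -0.29, -0.05 and 0.05, whereas males 1, 4 and 5 had -0.46, 0.35 and 0.24. The index was above 0 in 3 of 6 animals, and no test was made on it. It was lowest in male 1 and female 1 and highest in male 4 and male 5. Its place rested on single members: without TBR1 it was 0.90 and above 0 in 6 of 6 animals, without CUX1 it was -0.62, and without BCL11B it was -0.44, both below 0 in every animal. From coverage it was -1.36, between -1.66 and -0.95. In summed TPM, the upper layer members came to between 111 and 173 and the deep layer members to between 239 and 424, of which all but 37.1 to 81.5 TPM was the TBR1 locus.

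**Figure D4:**
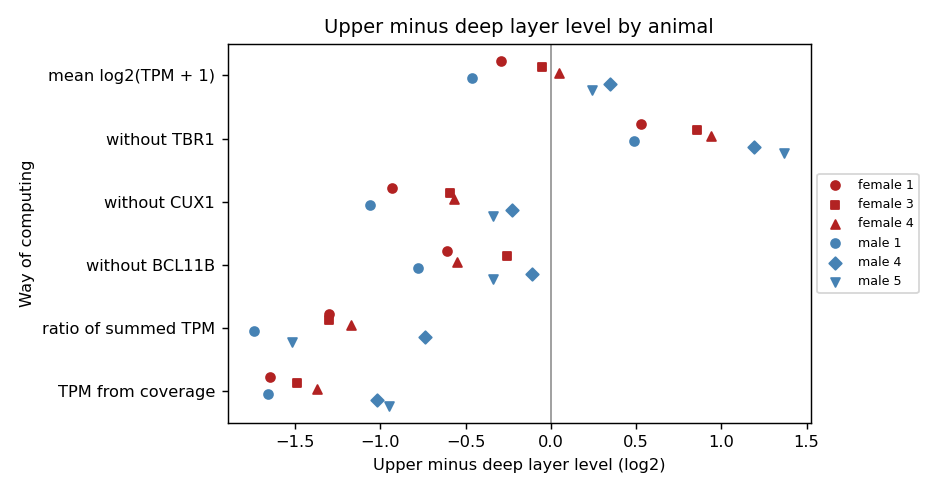
Upper minus deep layer level (log2) of each of 6 animals, females in red and males in blue, computed in 6 ways. Each symbol is 1 animal and the vertical line is an equal level. The animals lie on both sides of 0 only in the first way, all above it without TBR1 and all below it in the other 4 ways.

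Genes that mark the layers without being transcription factors gave a further view of the same libraries. Of 30 deep layer markers, 26 had a row, and their sum was 1371, 1314 and 998 TPM in the females and 1398, 745 and 578 TPM in the males. Of the 24 that entered the test, 0 were called between the sexes, 5 were higher in females at an unadjusted p under 0.05 by limma (2.41% of autosomal genes were) and 4 were higher in every female than in any male (4.84% were). Of the same 24, 15 were lowest in male 5, where 18.3% of the named genes were lowest, and FEZF2 and BCL11B were lowest there too. Male 5 also had the largest share of TPM in loci without strand (7.88%, against 2.30% to 5.16% in the others), and female 4 was lowest for 30.4% of the named genes. The part of these library features in the layer values was not tested. PCP4, a calmodulin-binding peptide of layer 5 and 6 neurons, was at 501, 465 and 452 TPM in the females and at 655, 227 and 162 TPM in the males. NXPH4, a secreted neurexin ligand that marks the deepest layer, was at 22.3, 16.8 and 17.0 TPM in the females and at 16.4, 2.58 and 0.582 TPM in the males. Male 4 and male 5 were the lowest animals for both genes, and they are also the 2 with the highest upper minus deep index as first computed. They were not the top 2 as a ratio of summed TPM (male 5 at -1.52, female 4 at -1.17). Nor were they without BCL11B (male 5 at -0.34, female 3 at -0.26). Of 18 upper layer markers, 10 had a row, and their sum was 322, 380 and 327 TPM in the females and 392, 322 and 432 TPM in the males, with 5 of the 9 tested highest in male 5, where 20.4% of the named genes were highest. CALB1, the calcium buffer calbindin, led these with between 101 and 209 TPM, followed by SYT17 at 114 ± 16 TPM (SD, n = 6), RSPO1 at 34.2 ± 5.24 and MATN2 at 31.6 ± 5.52. The sum of oligodendrocyte markers, 774, 626 and 632 TPM in the females and 412, 298 and 188 TPM in the males, was also lowest in male 4 and male 5. The part of these cells in the layer values was not tested.

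The sexes were compared with limma over all genes. Of the 8 members, 0 differed between females and males at an adjusted p under 0.1, where 0.0143% of the autosomal genes tested did. At an unadjusted p under 0.05 the count was again 0 of 8, against 5.02% of those genes, and the values of the sexes overlapped for all 8, against 9.81% of genes in which they did not. The mean log2(TPM + 1) was higher in females for 8 of 8 members, with a median difference of 0.267, although TBR1 turned lower in females with quantile normalization and without female 3 or male 4, and CUX2 and BCL11B did so with the animal number as a block. That block leaves female 3 and male 5, the highest and lowest animals for BCL11B, out of the sex estimate, since neither shares its number with another animal. Of the autosomal genes tested, 46.7% were higher in females (median difference -0.031), and of those with a name and a strand 55.8% were (median 0.039). The largest differences were 0.62 for FEZF2 (SE 0.305, adjusted p = 0.929 by limma) and 0.61 for BCL11B (SE 0.476, adjusted p = 0.929). The other members lay between 0.09 (SE 0.255) for TBR1 and 0.33 (SE 0.306) for CUX2. With 1 animal left out, the difference ran from 0.30 to 0.84 for FEZF2 and from 0.24 to 1.06 for BCL11B. Without male 4, NEUROD2 (0.62) and CUX2 (0.59) were above BCL11B (0.56). Among the other lists, 6 of 6 oligodendrocyte markers had a higher female mean (median difference 0.97), as did 22 of 24 deep layer markers (median 0.45) and 9 of 10 striatal markers (median 0.42). The count was 5 of 9 for upper layer markers (median 0.04), 3 of 7 for neuronal markers (-0.05), 5 of 10 for interneuron markers (-0.01), 2 of 6 for astrocyte markers (-0.08) and 2 of 6 for microglial markers (-0.16). It was 7 of 7 for cortical progenitor factors (0.36) and 4 of 5 for excitatory neuron markers (0.18). HBG and HBQ1 differed by 4.35 and 4.52. The part of these lists in the members' differences was not tested.

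**Figure D5:**
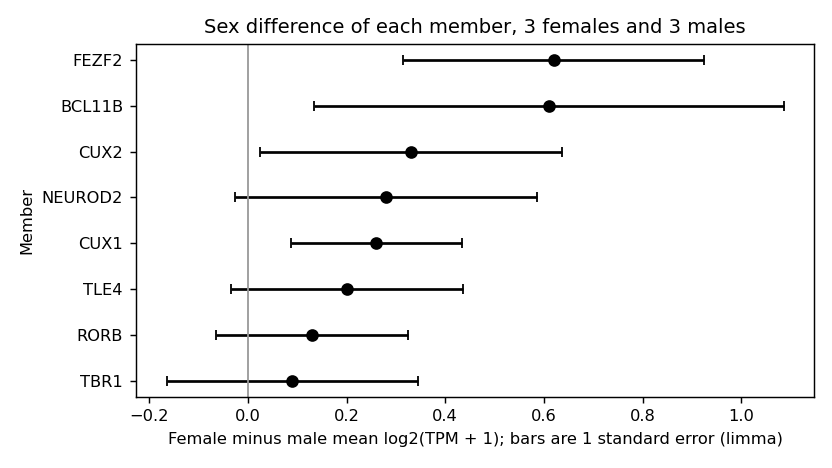
Female minus male difference in mean log2(TPM + 1) of each member, with 1 standard error from limma (3 females and 3 males). All 8 points lie above 0, from 0.09 for TBR1 to 0.62 for FEZF2, and no member passed an adjusted p of 0.1.

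Other transcription factors of projection neurons were measured in the same libraries. Of 35 listed, 31 had a row and entered the test, and POU3F3, LMO4 and ZBTB20 were among those without one. None was called between the sexes (adjusted p 0.929 or above by limma), with the female mean above the male mean for 13 and below it for 18. At an unadjusted p under 0.05 by limma, 3 were higher in males (2.61% of autosomal genes were), namely NFIB, RORA and NEUROD6, named after their values were seen. The values of 4 were higher in every male than in any female (4.97% of autosomal genes were), and those of 1, LDB1, were higher in every female. Among the most abundant were MYT1L, a repressor of non-neuronal genes, at 178 ± 21.5 TPM (SD, n = 6), ZBTB18, a repressor needed for cortical neuron development, at 175 ± 60.3, and LMO3 at 124 ± 29.0. The largest difference was that of NR4A2, an orphan nuclear receptor of the deepest cortical neurons, with 21.8, 9.30 and 3.69 TPM in the females and 6.34, 1.85 and 1.44 TPM in the males (1.48, SE 0.663, adjusted p = 0.929). FOXP1, the paralog of FOXP2 in upper and deep layers, was present under its own name at between 61.8 and 116 TPM. Without a row named FOXP2, no level of it is given.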

How the data were processed

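Polyadenylated RNA was sequenced from 3 female and 3 male prefrontal cortices of the tree shrew. The authors mapped reads to TS_3.0 with HISAT2 2.2.1 and assembled and merged transcripts with StringTie 2.2.1, separately per animal before the merge. The deposited TPM values sum to between 950532 and 971492 per library, the deposited FPKM values are proportional to them and were not used, and the deposited coverage is the mean depth over a locus and differs with library size. Without counts in the tables, the count-based test of the study was replaced and no interval for counting error was computed; depth per gene is known only as mean coverage. No strand-specific protocol is given, so overlapping genes on opposite strands cannot be told apart.

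TPM was summed over rows of one gene ID and chromosome. Genes that reached 0.1 TPM in at least 3 animals, outside the X and chromosome 26 segments that the study set apart as Y-linked, were fitted (30238 genes, of which 27996 autosomal) with limma 3.58.1 in R 4.3.3 on log2(TPM + 1), letting the variance follow the mean level. The Benjamini-Hochberg adjustment was made within autosomes, within X and within unplaced contigs, with a threshold of 0.1. All 8 members with a row passed the filter. Neighbouring members were compared by exact sign-flip permutation. Other values were computed with Python 3.11.15, numpy 2.4.6 and pandas 2.3.3 and drawn with matplotlib 3.10.9. The limma step was tested on simulated data. P-values measure the spread between 6 animals. Members and gene lists were chosen with earlier results of these data known. Besides all members, genes were named by their place in a list (the 4 highest by mean TPM, the largest sex difference, any called gene), with PENK, TAC1, SLC17A7 and CAMK2A among these, and for each member the strongest overlapping locus; exceptions are said to be chosen after values were seen. Some genes that this rule would name are not reported here. NXPH4 and PCP4 are the largest difference and the highest level of the deep layer list. The ratios to SLC17A7 and CAMK2A and the coverage scale were chosen after values were seen. Alternatives were other pseudocounts, filters, scalings, row sums, strand choices, no trend, joint adjustment, the animal number as a block and each animal left out.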

Additional observations from a re-analysis of the deposited data

Results flagged for a closer look

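RORB stood out because 1 library lay apart from the other 5: female 3 was at 28.7 TPM and the others lay between 21.6 and 23.7 TPM, so that the gap to the nearest animal made up 0.696 of the whole range. Chance marks about 1 in 20 such sets of 6, and 8 members were examined in this way. In deposited TPM, female 3 was also the highest animal for CUX1, CUX2, TBR1, BCL11B and TLE4, and 24.2% of the named genes were highest in that library.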

How the results depend on the processing

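No member was called between the sexes under any alternative. Of 144 differences (8 members under 18 alternatives each), 139 kept their direction and 5 turned: with the replicate block CUX2 was at -0.0117 and BCL11B at -0.0712, with quantile normalization TBR1 was at -0.0147, and TBR1 was at -0.0739 without female 3 and at -0.15 without male 4. Leaving out each animal gave 0.24 to 1.06 for BCL11B, 0.30 to 0.84 for FEZF2, -0.15 to 0.23 for TBR1, 0.05 to 0.62 for NEUROD2, 0.09 to 0.59 for CUX2, 0.17 to 0.36 for CUX1, 0.09 to 0.31 for TLE4 and 0.03 to 0.19 for RORB. From coverage, the difference was 0.0251 for CUX2 and 0.10 for CUX1, against 0.33 and 0.26 from TPM. The smallest adjusted p of any member under any alternative was 0.493 by limma, for NEUROD2 without male 4. With the replicate block 0 members were called, and its differences rest on animals 1 and 4 of each sex, since female 3 and male 5 have no same-numbered animal. The animal numbers do not pair the sexes: the deviations of same-numbered animals from their group means correlated at -0.000492 (number 1) and 0.044 (number 4) across 21702 genes.

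The upper minus deep index moved from -0.03 to -1.29 as a ratio of summed TPM, -0.62 without CUX1, -0.44 without BCL11B, -1.36 from coverage and 0.90 without TBR1, the last 2 chosen after seeing the data. FOXP2 has no row, so the alternative that drops it with BCL11B drops BCL11B alone. Keeping rows apart or taking the highest row gave identical values, since each member has 1 row. The comparison of neighbours was not run on 5 animals, where the smallest possible exact permutation p is 0.0625. The tables give mean coverage but no read counts, so no difference between members was set against counting error.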

Other observations

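In other mammals FOXP2 lies between MDFIC and PPP1R3A. In the tables the interval between the rows of these 2 genes on chromosome 5 holds 12 loci, 9 of them with a strand, of which the stranded one with the highest mean TPM is an unnamed locus of 641358 bases on the minus strand (70531787 to 71173144, TS_3.0). It was at 3.10, 9.10 and 1.40 TPM in females 1, 3 and 4 and at 3.05, 0.762 and 1.05 TPM in males 1, 4 and 5. Its identity was not tested, and the locus was looked up after the data were seen. Like BCL11B, it was higher in female 1, female 3 and male 1 than in the other 3 animals. The difference between the sexes was 0.92 (SE 0.666, adjusted p = 0.929 by limma).

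Of the 11270 named genes, those whose pattern over the 6 libraries was nearest to that of BCL11B, by the root-mean-square distance of centred log2(TPM + 1), were HEPACAM2 (0.128), NDE1li1 (0.138) and RPS6KA1li1 (0.14), the last 2 being gene-like copies in the annotation. Those nearest to FEZF2 were RHPN1 (0.0845), CYC1 (0.0993) and MIFli1 (0.11). CYC1, a subunit of the mitochondrial respiratory chain, was at 1001, 882 and 1138 TPM in the females and at 680, 892 and 454 TPM in the males, highest in female 4 and lowest in male 5 as FEZF2 was.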
